A study of Danio rerio with 4 samples.

Results

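The receptors through which neurons sense glutamate, GABA and glycine are encoded in zebrafish by a large set of duplicated genes. Members were taken by symbol: genes whose names start with *gria*, *grik*, *grin*, *grid* or *grm* followed by a digit (without the *grm6* genes), *gabr*, *gabbr*, *glra* or *glrb*, in any letter case, that were listed at both stages and reached 20 summed reads at 36hpf or an FPKM (fragments scaled to transcript length and library depth) of 1 in either library at 72hpf. Of 78 such symbols shared by the stage tables of 31388 and 31950 genes, 77 met a minimum. They comprised 8 AMPA, 6 kainate, 13 NMDA, 3 delta and 11 metabotropic glutamate (mGlu) receptor genes, 18 GABAA, 6 GABAA rho and 3 GABAB receptor genes and 7 glycine receptor genes. The remaining members, *grid2ipa* and *grid2ipb*, carried a matching name but encode proteins that bind the delta receptor. At 36hpf 73 members passed the minimum, at 72hpf 64 did, and 60 passed at both stages. *GRM5 (1 of 2)* fell below both minimums, and *GABRB2 (2 of 2)* and *GABRB2* were each listed at 1 stage.

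AMPA, kainate and NMDA receptors are glutamate-gated cation channels, and mGlu receptors act through G proteins. GABAA and glycine receptors are chloride channels built from different subunits, while GABAB receptors act through G proteins. In the retina photoreceptors and bipolar cells release glutamate, whereas amacrine and horizontal cells release GABA or glycine, and rho subunits form GABA receptors on bipolar cell terminals.

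RNA-seq was performed on dissected eyes of TL strain embryos, with 1 sample per genotype at 36hpf and at 72hpf, 4 samples in all, and 100 eyes dissected per stage. Mutants were *tet2*-/-;*tet3*-/- embryos carrying TALEN-made frameshift alleles (*tet2* au59 and *tet3* au60) of 5-methylcytosine dioxygenases, recognised by their morphology. Controls were phenotypically wild-type siblings from the same in-crosses of *tet2*+/-;*tet3*+/- adults, a pool that may itself carry mutant alleles, and no sample was treated. The comparison asks how receptor transcripts differ between mutant and sibling eyes at each stage. Both alleles are small deletions that leave most of each transcript countable, so read totals check the labels only where a transcript is lost. *tet2* had 9646 reads in the sibling and 12459 in the mutant sample at 36hpf, and 33.6 and 34.1 FPKM at 72hpf. *tet3* had 8381 and 8611 reads, then 55.9 and 37.9 FPKM. Since *tet2* was not lower under the mutant label, each library is referred to by its label, sibling-labelled or mutant-labelled. With 1 sample per genotype and stage no difference below has a replicate check or a test.

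The 36hpf libraries held 88875538 and 106912677 assigned reads, sibling-labelled first, and the 72hpf FPKM summed to 529630 and 552926, with the read depth of each library unknown. All 13 eye field and eye-defining genes in a fixed list were measured at both stages, and the 11 of them that are not lens crystallin genes summed to 806 and 740 FPKM at 72hpf. In these whole-eye samples, fewer cells of a type and less RNA per cell cannot be told apart.

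At 72hpf nearly every measured receptor gene had the lower level in mutant-labelled eyes. On the log2(FPKM + 1) scale 63 of 64 members were below 0 and the median difference was -1.14, beside a median of 0.02 and 48.1% below 0 over all 17307 genes. There were 37 members at -1 or less, where 9.02% of all genes stood, and 5 at -2 or less, where 1.77% stood. No member reached 1 or more, a place held by 3.65% of all genes, or 2 or more, which 0.254% reached. For 11 members only the sibling-labelled library reached 1 FPKM, so these could only be lower. They were *GRIK5 (1 of 2)*, *grin2bb*, *grin2ca*, *GRIN3A*, *GRM2 (2 of 2)*, *grm3*, *grm4*, *gabra6a*, *GABRA4*, *GABRG1* and *GABRG3*. Over the 53 members with 1 FPKM in both libraries the median was -1.15 and 31 were at -1 or less, beside a median of 0.02 and 7.76% of the 15506 genes under that filter. Summed over all 77 members, FPKM was 1074 in sibling-labelled against 351 in mutant-labelled eyes, 3.06-fold lower. Of the 42 members with 5 or more FPKM in sibling-labelled eyes, 37 were at least 2-fold lower, as were 13.1% of the 10436 genes at that level, and the median member was 3.0-fold lower. The order of the genes differed little at its top, since 9 of the 10 highest members were shared by both libraries.

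**Figure D1:**
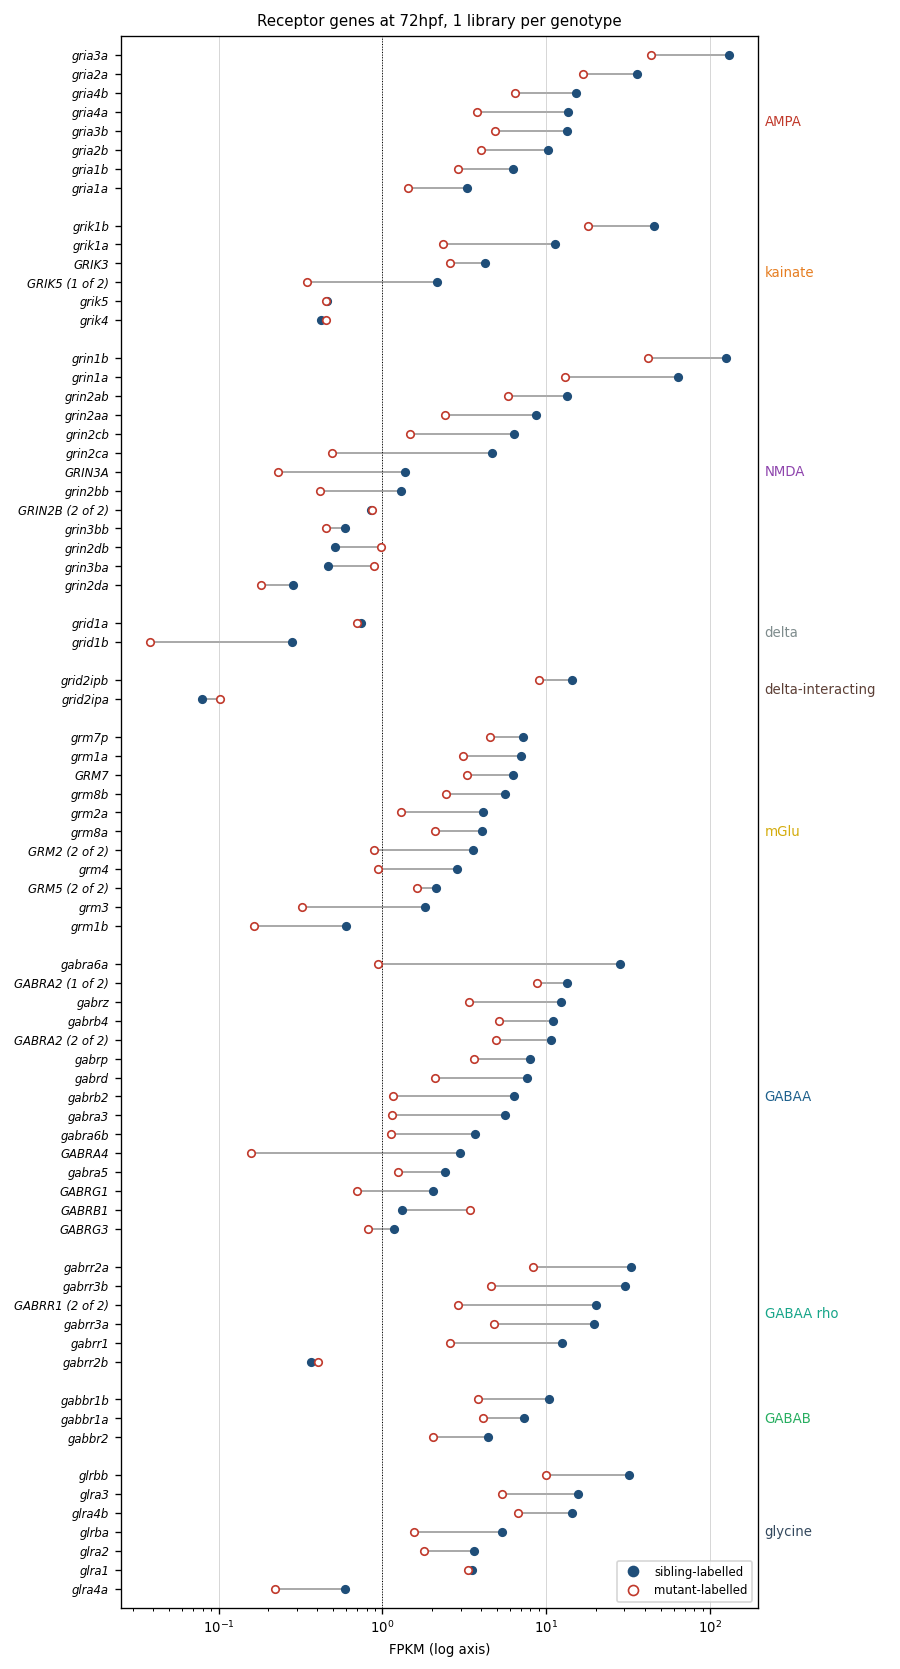
FPKM (log axis) of 73 members at 72hpf in sibling-labelled (filled) and mutant-labelled (open) eyes, 1 library each, ordered within each class by the sibling-labelled level; the dotted line marks 1 FPKM. Open points lie to the left of filled points for nearly all genes above the line, by a factor of 29.7 for *gabra6a*, and *GABRB1* is the exception.

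The AMPA receptor genes, which carry fast excitation, were all lower at 72hpf. Their summed FPKM was 229 in sibling-labelled against 83.8 in mutant-labelled eyes, a 2.73-fold difference. Of the 8 genes, 6 were at -1 or less, where 9.02% of all genes stood. *gria3a*, a GluA3 gene, was the most abundant member in both libraries, at 131 FPKM in sibling-labelled against 43.6 in mutant-labelled eyes. It contributed 57.3% and 52.0% of AMPA receptor FPKM. *gria2a*, which encodes the GluA2 subunit that limits calcium entry through the channel, read 35.6 and 16.8 FPKM, 2.12-fold lower. *gria4a* had the lowest AMPA value, -1.61, at 13.6 and 3.75 FPKM. Both GluA4 and GluA3 second copies were in the same range, *gria4b* at 15.1 and 6.45 FPKM and *gria3b* at 13.5 and 4.84. Among the lowest in abundance was *gria1a*, at 3.27 and 1.42 FPKM. The makeup of this class by gene was therefore similar in both libraries although its total differed.

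The obligatory NMDA subunit genes were among the most abundant members. NMDA receptors need GluN1 in every channel, and GluN2 subunits set their kinetics. *grin1b* had 125 FPKM in sibling-labelled against 41.7 in mutant-labelled eyes, and its copy *grin1a* had 63.3 and 13.0, a difference of -2.20. Both GluN1 genes together were 3.44-fold lower. Among GluN2 genes *grin2ab* was highest, at 13.4 and 5.84 FPKM, and *grin2aa* read 8.64 and 2.41. *grin2ca* read 4.69 and 0.493 FPKM, 9.51-fold lower, and its copy *grin2cb* read 6.38 and 1.47. The GluN2C genes thus took a smaller part of GluN2 FPKM in mutant-labelled eyes, as the shares by gene show. For *grin2ca* only the sibling-labelled library reached 1 FPKM, so it could only be lower. The GluN3 genes, whose products reduce the calcium permeability of the channel, were at or below 1.38 FPKM in both libraries, so their differences rest on low values.

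Kainate and metabotropic genes followed with smaller sums. *grik1b*, a GluK1 gene, had 45.2 FPKM in sibling-labelled against 18.1 in mutant-labelled eyes and made up most of the kainate total, which was 2.63-fold lower. Its copy *grik1a* read 11.2 and 2.35 FPKM, a difference of -1.87. *GRIK3*, a GluK3 gene, read 4.21 and 2.57 FPKM, the smallest fold of the measured kainate genes, and *GRIK5 (1 of 2)* read 2.14 and 0.346. The last could only be lower, since it reached 1 FPKM only in the sibling-labelled library. The mGlu genes had a smaller fold of the sum, 2.18-fold lower. All 10 measured genes were below 0, as were 48.1% of all genes. At -1 or less stood 3 of them, beside 9.02% of all genes. Those 3 were the group II genes, which couple to inhibitory G proteins: *grm2a* at 4.10 and 1.30 FPKM, *GRM2 (2 of 2)* at 3.57 and 0.889, and *grm3* at 1.81 and 0.321. For *GRM2 (2 of 2)* and *grm3* only the sibling-labelled library reached 1 FPKM, so they could only be lower. Group II FPKM was 3.78-fold lower, against 1.99-fold for group I and 1.95-fold for group III. *grm1a*, of group I, read 6.99 and 3.09 FPKM. The group III genes *grm8b*, *grm8a* and *grm4*, whose products sit mostly on presynaptic terminals, lay between -0.997 and -0.72 on the log2(FPKM + 1) scale, with *grm8b* at 5.58 and 2.44 FPKM. *grm4*, just short of -1, read 2.86 and 0.935 FPKM, 3.06-fold lower, beside 3.16-fold for *grm2a*. It too reached 1 FPKM only in the sibling-labelled library. *grm7p*, an entry that lies beside *GRM7*, read 7.16 and 4.55 FPKM. Its locus is short (chromosome 22, 33816702 to 33816966), and it gave 27.6% and 34.2% of group III FPKM. The group III fold therefore rests in part on this short entry. *grid2ipb*, encoding a protein that binds the delta receptor, read 14.3 and 9.06.

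GABAA receptor subunit genes held both the lowest and the highest difference of the set. Their summed FPKM was 278 in sibling-labelled against 78.9 in mutant-labelled eyes, 3.53-fold lower. Of the 18 genes, 10 were at -1 or less, where 9.02% of all genes stood. *gabra6a*, an alpha6 subunit gene, had 28.1 FPKM in sibling-labelled against 0.945 in mutant-labelled eyes, 29.7-fold lower. Its difference of -3.90 was the 22nd lowest of all genes tested. Its copy *gabra6b* read 3.67 and 1.12 FPKM, 3.27-fold lower. *GABRA4* read 2.97 and 0.157 FPKM. Like *gabra6a*, also among those 10, it reached 1 FPKM only in the sibling-labelled library, so both could only be lower. *gabrd*, encoding the delta subunit of receptors outside synapses, read 7.65 and 2.096. *gabrz*, the zeta subunit gene of fish, read 12.4 and 3.36 FPKM. In the opposite direction *GABRB1*, a beta1 subunit gene, read 1.32 and 3.42 FPKM, a difference of 0.93. The alpha gene with the smallest fold was *GABRA2 (1 of 2)*, at 13.4 and 8.81 FPKM.

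The mix of GABAA subunit transcripts also differed between the libraries. *gabra6a* gave 22.7% of alpha subunit FPKM in sibling-labelled against 2.58% in mutant-labelled eyes. *GABRA2 (1 of 2)* went the other way, from 10.8% to 24.1%. Among beta genes *gabrb4* gave 12.5% and 24.8%, and *GABRB1* 1.5% and 16.4%. The alpha and beta subunits form the GABA binding site, and their gene mix therefore differed between the libraries, while the AMPA mix did not to the same extent. These shares are of FPKM in 1 library each and carry no interval.

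**Figure D2:**
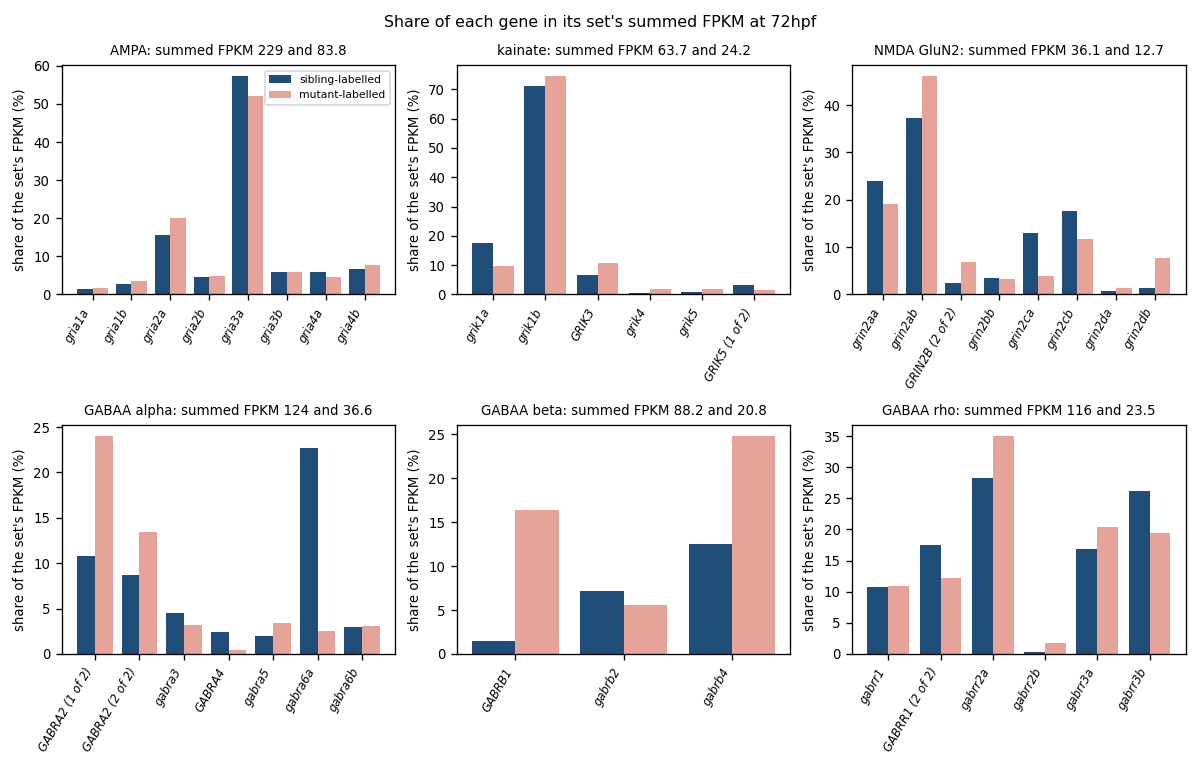
Share of each gene in the summed FPKM of its set at 72hpf, in percent from 0, for sibling-labelled (dark) and mutant-labelled (light) eyes, with both sums above each panel. Genes whose values are not reported are not drawn. *gabra6a* has a lower share in mutant-labelled eyes, and *GABRA2 (1 of 2)*, *gabrb4* and *GABRB1* higher shares, while the AMPA shares stay near each other.

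The rho genes had the largest fold of any class. Their FPKM summed to 116 in sibling-labelled against 23.5 in mutant-labelled eyes, 4.92-fold lower. All 5 measured genes were at -1 or less, where 9.02% of all genes stood, with a median of -1.91. *gabrr3b* read 30.3 and 4.58 FPKM, a difference of -2.49. *GABRR1 (2 of 2)* read 20.2 and 2.88 FPKM, a difference of -2.45. *gabrr2a* was the highest rho gene, at 32.7 and 8.24 FPKM, and *gabrr3a* read 19.5 and 4.81. For the GABAB genes, which encode the metabotropic GABA receptor, the sums were 22.1 and 9.97 FPKM, 2.21-fold lower. The GABA-binding subunit genes *gabbr1b* and *gabbr1a* read 10.4 and 3.83 and 7.28 and 4.11 FPKM, and *gabbr2*, encoding the subunit that couples to G proteins, read 4.42 and 2.03.

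Glycine receptor genes were lower by 2.58-fold in summed FPKM, with a larger fold for the beta than for the alpha subunit genes. *glrbb*, a beta subunit gene whose product anchors the receptor at synapses, read 32.0 FPKM in sibling-labelled against 10.01 in mutant-labelled eyes, and its copy *glrba* 5.33 and 1.55. The alpha genes *glra3* and *glra4b* read 15.6 and 5.38 and 14.3 and 6.75 FPKM. *glra1*, the alpha gene best known from spinal cord and brainstem, read 3.53 and 3.31 FPKM, a difference of -0.07, the smallest of the class. Glycine alpha FPKM was 2.16-fold lower and beta 3.23-fold lower.

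A further 13 members stayed below 1 FPKM in both libraries at 72hpf, and their values at that stage are too low for a comparison. They were *grik4*, *grik5*, *GRIN2B (2 of 2)*, *grin2da*, *grin2db*, *grin3ba*, *grin3bb*, *grid1a*, *grid1b*, *grid2ipa*, *grm1b*, *gabrr2b* and *glra4a*. The highest of them in mutant-labelled eyes was *grin2db*, a GluN2D gene, at 0.511 FPKM in the sibling-labelled and 0.987 in the mutant-labelled library. Conversely *GABRA4*, *GABRG3*, *gabrr1* and *gabrr2a*, 4 GABAA and rho genes, had under 20 reads at 36hpf.

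Transcripts for proteins that anchor, escort or set the ion gradient for these receptors differed in a like range. Of 77 genes in a list of partners, 52 were measured at 72hpf, with a median of -1.03. There were 31 at -1 or less and 49 below 0, where 9.02% and 48.1% of all genes stood. Only the sibling-labelled library reached 1 FPKM for *lhfpl4b*, *cacng3a*, *cacng5b*, *cacng7a*, *cacng7b*, *cacng8a*, *shisa7a*, *gsg1l*, *neto1l*, *shank1*, *kctd8*, *cbln2b* and *elfn2a*. These partners could only be lower, and several of them are among the 31. The lowest differences of the list were those of *slc12a5b*, *neto2b* and *dlg4b*, named here after their values were seen. *slc12a5b*, which encodes a potassium-chloride cotransporter that keeps neuronal chloride low, read 26.5 FPKM in sibling-labelled against 1.59 in mutant-labelled eyes. *neto2b*, a kainate receptor auxiliary subunit gene, read 25.3 and 1.73, and *dlg4b*, a postsynaptic scaffold gene, read 30.6 and 2.45. *gphna*, a gephyrin gene that anchor glycine and GABAA receptors, read 22.5 and 8.37. The 3 partners above 0 were *cacng4b*, an AMPA receptor auxiliary subunit gene, at 2.82 and 5.62 FPKM, *nsfb* at 4.86 and 6.08, and the scaffold gene *shank3b* at 1.45 and 1.62.

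Marker genes of retinal cells did not stand at the receptors' level in all classes. The amacrine and horizontal cell list had a median of -0.58 (17 measured of 18, summed 1365 and 936 FPKM) and the bipolar list -0.46 (13 of 14, summed 1274 and 1075). Within those lists, chosen after their values were seen, the transcription factor genes *tfap2a* read 202 and 167 FPKM, *barhl2* 53.3 and 53.7 and *vsx1* 424 and 398, whereas *gad1b*, encoding a GABA-synthesising enzyme, read 71.4 and 18.8 and the GABA transporter gene *slc6a1b* 71.3 and 10.2. This division did not hold throughout. *gad2*, the other GABA-synthesising enzyme gene of the list, read 26.95 and 22.2 FPKM, and the transcription factor gene *lhx1a* read 8.73 and 4.90. In the bipolar list 3 genes, *prkca*, *nyx* and *cabp5b*, were at -2 or less, where 1.77% of all genes stood, and 2 were above 0. Of these 3, *prkca* read 39.9 and 7.38 FPKM and *nyx* 18.8 and 3.44. The ganglion cell list had a median of 0.03 (10 of 13, summed 397 and 477.5 FPKM), and the photoreceptor list -3.92 (19 of 22, summed 16727 and 1370 FPKM). Of tissue from outside the retina, muscle genes were higher in mutant-labelled eyes (22 measured of 24, summed 50.6 and 335 FPKM). The heart genes *cmlc1* and *myl7* had an FPKM of 0 under the sibling label. Both of them, *vmhc*, *myh6*, *nppa*, *tnnt3a*, *neb*, *chrng* and *vmhcl* were below 1 FPKM there, so these could only be higher. In turn *pvalb1*, at 2.09 and 0.943 FPKM, could only be lower. The brain list had a median of 0.42 over the 11 measured of 22, with 7 above 0. Its sum, 97.9 and 86.8 FPKM, was lower. Its 4 genes at 1 or more, where 3.65% of all genes stood, were *hoxa2b*, *hoxb3a*, *pax8* and *otpb*. These, *hoxb2a* and *emx3* were below 1 FPKM under the sibling label, so they could only be higher. The part of any of these in the receptor values was not tested.

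**Figure D3:**
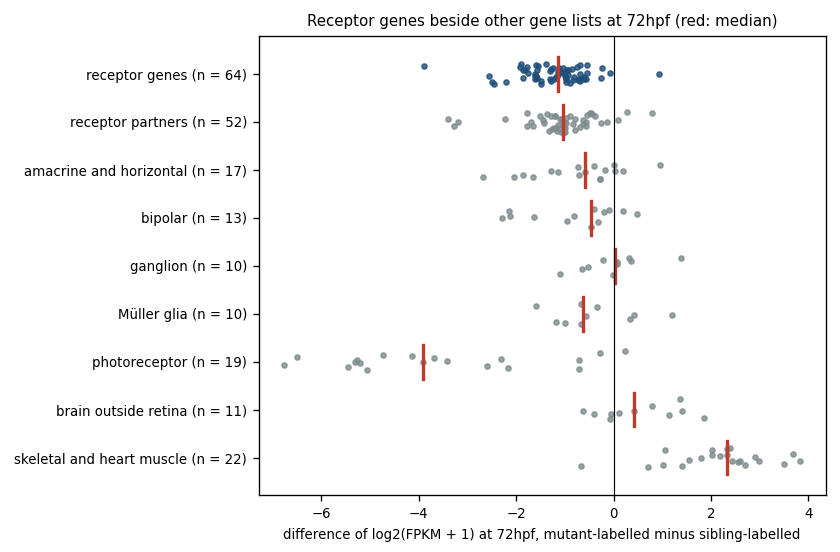
Difference of log2(FPKM + 1) at 72hpf, mutant-labelled minus sibling-labelled, for each measured receptor gene (top row) and for genes of other lists, 1 point per gene, with the median in red. The receptor median of -1.14 lies near that of the partners, below those of ganglion, bipolar and amacrine genes and above that of photoreceptor genes at -3.92.

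At 36hpf, before most retinal neurons have matured, the receptor genes showed no such common shift. Here values are log2 ratios of TMM-scaled read counts with 0.5 reads added, with exact 95% intervals that cover counting error only. The median of 73 members was -0.19 against 0.01 over all 21876 genes, 42 members were below 0 and 31 above. There were 16 at -1 or less, where 6.15% of all genes stood, and 3 at -2 or less, where 1.4% stood. There were 3 at 1 or more, where 8.9% of all genes stood, and 1 at 2 or more, where 1.77% stood. The interval lay wholly below 0 for 26 members, wholly above for 15, and held 0 for 32. Intervals wholly at -1 or less were found for 9 members and wholly at 1 or more for 0. The intervals are too narrow as an error of these libraries, since the 2 counts behind each sample differed by a chi-square of 1.94 per member. This was computed for 35 members in the sibling-labelled and 40 in the mutant-labelled library, where counting alone gives values near 1. Over the 15744 and 16436 genes computed in the same way, the values were 1.30 and 1.31. Marker lists differed between the libraries at this stage too. All 18 measured lens genes were at -1 or less (median -2.37), the ganglion list had a median of -1.02 (9 measured of 13), the photoreceptor list -1.13 (16 of 22), the amacrine and horizontal list -0.53 (17 of 18) and the bipolar list 0.01 (11 of 14). The brain list had a median of -0.64 (15 of 22), with 11 below 0 and 4 above. Of its genes 6 were at -1 or less, where 6.15% of all genes stood. The Müller glia list had a median of 0.34 (10 of 10) and the muscle list -0.21 (21 of 24). Their part in the 36hpf receptor values was not tested.

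**Figure D4:**
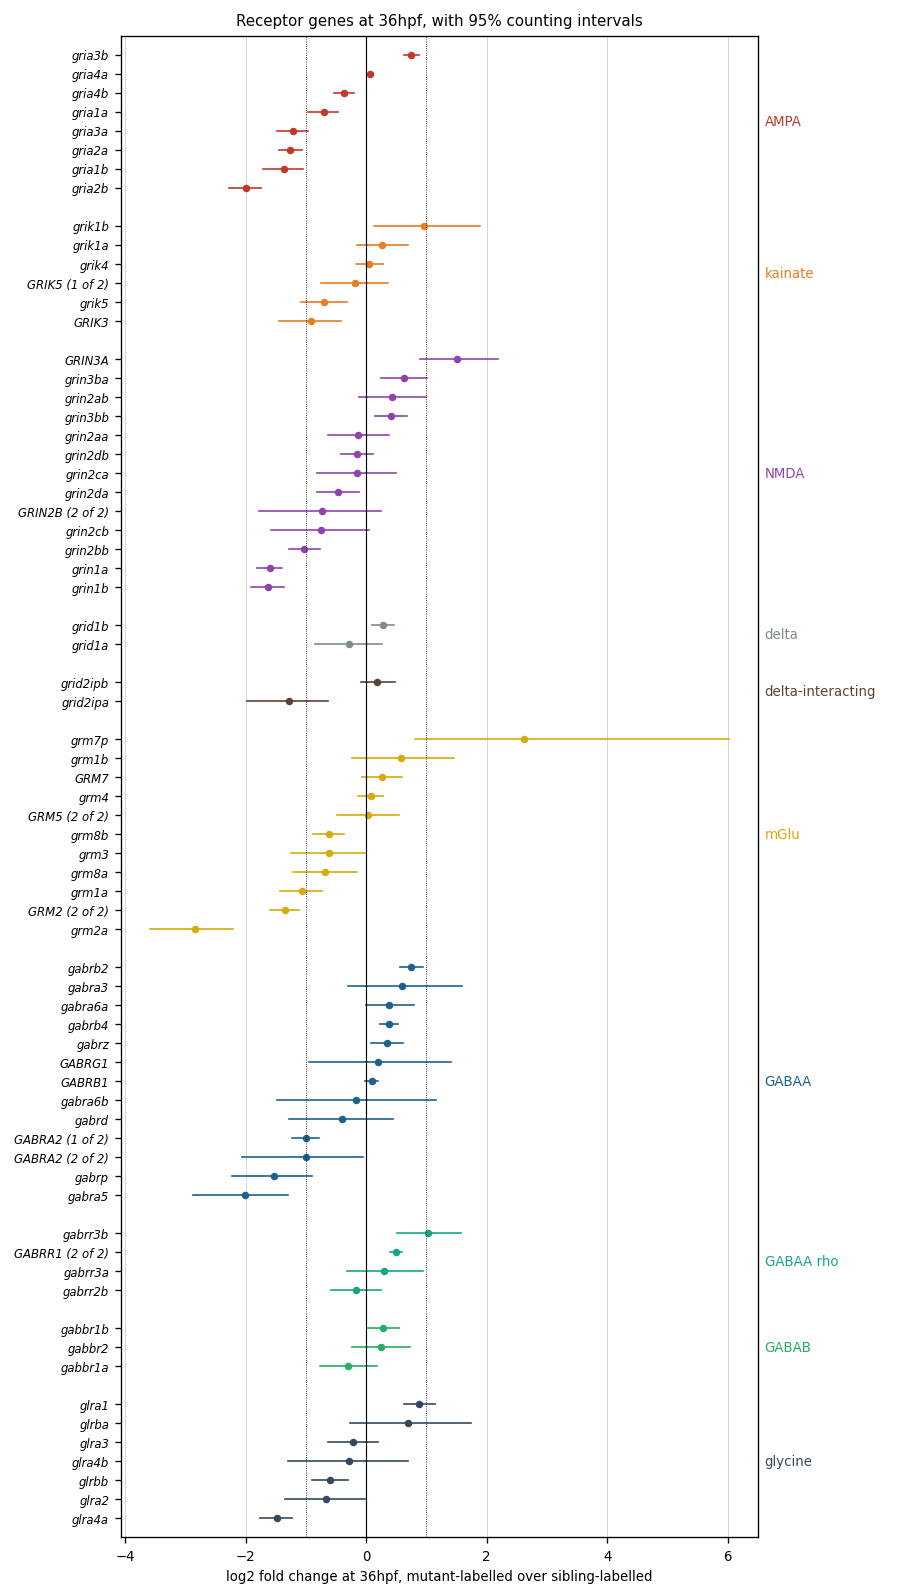
Log2 fold change at 36hpf, mutant-labelled over sibling-labelled, of 69 members with 20 or more reads, by class, with 95% counting intervals as bars; dotted lines mark -1 and 1. The GluN1, GluA2 and group II mGlu genes lie to the left, and *gria3b*, *gabrb2*, *glra1* and *GABRR1 (2 of 2)* lie to the right of 0.

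Genes of several receptor types had the lowest ratios at 36hpf. *grm2a*, a group II mGlu gene, had 131 reads in sibling-labelled against 22 in mutant-labelled eyes (-2.84, -3.59 to -2.21), and *GRM2 (2 of 2)* had 425 and 204 (-1.35, -1.60 to -1.11). *gria2b*, a GluA2 gene, had 491 and 150 reads (-2.001, -2.28 to -1.74), and its copy *gria2a* had 669 and 343 (-1.26). The GluN1 genes were close to each other, *grin1a* with 663 and 269 reads (-1.59, -1.81 to -1.39) and *grin1b* with 401 and 158 (-1.63, -1.91 to -1.37). *gria1b* had 245 and 116 reads (-1.37). The kainate genes lay between -0.92 and 0.96. None of the measured kainate (6), delta (3), rho (4) and GABAB (3) genes was at -1 or less, where 6.15% of all genes stood. With so few genes, none at -1 or less is near that share and sets no class apart. Of the chloride channels, *gabra5* had 64 and 19 reads (-2.02, -2.87 to -1.29), *glra4a* 387 and 169 (-1.49, -1.76 to -1.23) and *gabrp*, a pi subunit gene, 69 and 29 (-1.53).

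Other members were higher in mutant-labelled eyes at 36hpf. *GRIN3A*, a GluN3 gene, had 27 reads in sibling-labelled against 95 in mutant-labelled eyes (1.51, 0.89 to 2.19). *grm7p* had 2 and 18 reads, a log2 ratio whose interval ran from 0.81 to 6.03. *gria3b* had 877 and 1812 reads (0.75, 0.64 to 0.87), *gabrb2* 333 and 685 (0.75, 0.56 to 0.94) and *glra1* 188 and 425 (0.88, 0.63 to 1.14). *GABRR1 (2 of 2)* had 1307 and 2266 reads (0.50, 0.40 to 0.60) and *gabrr3b* 43 and 108 (1.03, 0.51 to 1.58). *gria4a*, with the most reads of any member, 7493 and 9636, differed little (0.07, 0.02 to 0.11). *gabra6a* had 88 and 141 reads (0.38, with 0 inside its interval), and *gabrr2a*, abundant at 72hpf, had 0 and 1. Summed over members the reads were 22713 and 26457, a log2 ratio of -0.07.

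Set beside each other, the stages differed gene by gene. Of the 60 members measured at both, 26 were above 0 at 36hpf, and 25 of these were below 0 at 72hpf, with a median of -1.16. The other 34 were below 0 at 36hpf, and all 34 were below 0 at 72hpf, with a median of -1.13. The 72hpf values were thus alike in both groups. Of these 60 members, 14 were at -1 or less at 36hpf and 34 at 72hpf. At -1 or less at both stages were 7, beside 1.42% of the 15441 genes measured at both. They were the GluN1 genes *grin1a* and *grin1b*, the GluA2 genes *gria2a* and *gria2b*, *gria3a*, *grm2a* and *GRM2 (2 of 2)*. These are 7 of the 14 at -1 or less at 36hpf, beside 34 of all 60 at 72hpf. The overlap is thus no larger than those 2 counts alone would give. *gabrr3b* alone was at 1 or more at 36hpf and at -1 or less at 72hpf, where 0.602% of the 15441 genes stood. The stages were measured in different units on different instruments, and their difference was not tested.

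**Figure D5:**
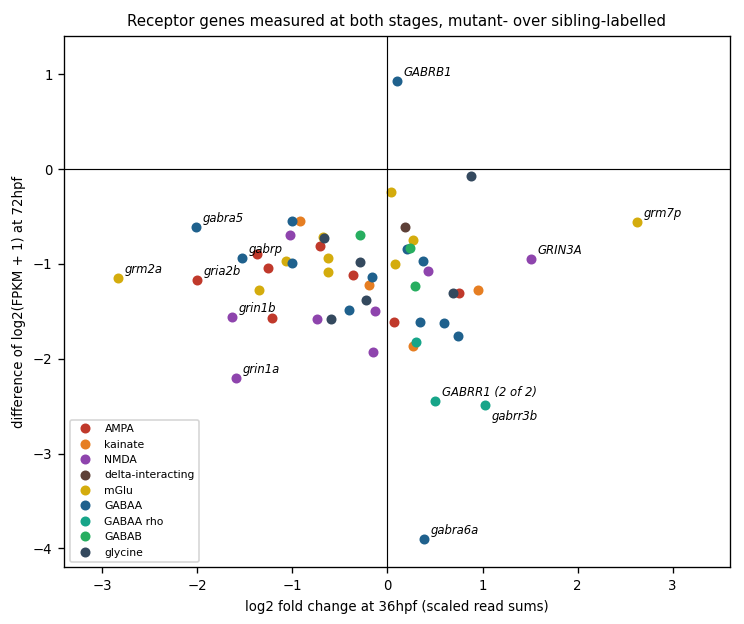
Each point is 1 of 56 members measured at both stages, coloured by class, with the 36hpf log2 fold change on the horizontal axis and the 72hpf difference of log2(FPKM + 1) on the vertical axis, mutant-labelled over sibling-labelled. Points spread to both sides of 0 at 36hpf, and all except *GABRB1* lie below 0 at 72hpf.

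Duplicated copies offered a comparison within a subunit type. Of 19 pairs of a and b copies measured at 36hpf, 9 had opposite signs and 5 differed by 1 or more, with a median absolute difference of 0.59. With 42 of 73 members below 0 and 31 above at that stage, opposite signs would be common among unpaired members too. The pairs include *grid2ipa* and *grid2ipb*, which are not receptor subunit genes, and some copies had few reads, such as *glrba* with 42. *gria3a* and *gria3b* lay at -1.22 and 0.75. At 72hpf 0 of 13 pairs had opposite signs. This restates the common direction, since the 1 measured member above 0, *GABRB1*, is in no pair. The median absolute difference at 72hpf was 0.42, and 1 pair differed by 1 or more, the alpha6 genes *gabra6a* and *gabra6b*, by -2.77. Reads of close copies may be shared between them, so the pairs are not fully separate measurements.

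Several subunit genes lie next to each other in the genome (GRCz10), and 23 members fell into 10 groups with gaps under 500 kb. On chromosome 14 *gabra6a* (21843012 to 21871541) and *gabrb2* (21874801 to 21976602) were 29.7-fold and 5.44-fold lower. These neighbours, an alpha6 and a beta2 subunit gene, thus differed in fold. On chromosome 13 *GABRA2 (2 of 2)* and *GABRG1*, at 10.7 and 4.91 and at 2.05 and 0.698 FPKM, stood beside *GABRB1*, the member that was higher. *gabra5* shares its locus with another entry in the 72hpf table, so its reads may not be separable.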

How the data were processed

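Dissected zebrafish eyes were profiled by poly-A RNA-seq, 1 sample per genotype at 36hpf (NextSeq, CLC Genomics Workbench) and at 72hpf (HiSeq, with FastQC, TopHat and Cufflinks), both on GRCz10. At 36hpf the deposited values headed FPKM were means of 2 whole counts per genotype; doubled, they gave the expected counts used here, which needed no rounding, and the deposited log2 columns were read only to recover those 2 counts. No source read here says whether these were runs or libraries, and they were treated as 1 sample. At 72hpf the authors deposited FPKM from Cufflinks. The authors' table of differential genes, which holds their log2 fold changes, was not used. No other column of sample values was left out.

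Counts were scaled with edgeR 4.0.16 (TMM, genes with 20 or more reads, R 4.3.3), and log2 ratios were taken with 0.5 reads added and exact 95% Clopper-Pearson intervals, which cover counting error only (scipy 1.17.1). FPKM were compared as differences of log2(FPKM + 1), which understate the change of low genes, over genes with 1 FPKM in either library. Folds of FPKM were taken without a pseudocount. Thresholds were 1 and 2 on the log2 scale. With 1 sample per group no test was run. Alternatives were library totals and DESeq2 1.42.0 size factors, other read and FPKM minimums, other added values, centring, and lower-case symbols. Scripts were tested on simulated data. All members could be named. Members at 2 or -2 at either stage, the highest and lowest of each class with 100 reads or 5 FPKM, and the most abundant of each class were picked by rule. Not all of their values are printed. Further members that the text singles out were chosen after their values were seen. The members and lists were chosen with earlier results of these data known. Genes of other lists that are on more than 1 row of a table were left out. Of 77 members, 75 had a symbol in the reference names, and 14 are listed in capitals. The values of 4 members are not reported here, though class sums and counts include them. No sequence is shown.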

Additional observations from a re-analysis of the deposited data

Results flagged for a closer look

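*gabrr3b*, a rho subunit gene, was higher in mutant-labelled eyes at 36hpf (log2 ratio 1.03, 43 and 108 reads) and lower at 72hpf (difference of log2(FPKM + 1) -2.49, 30.3 and 4.58 FPKM). It stood out because its values pointed in opposite directions at the 2 stages, each by 1 or more, where 0.602% of genes measured at both stages stood. Of the 60 members measured at both, 34 were at -1 or less at 72hpf. As 1 of these 60, *gabrr3b* does not set the receptor genes apart from that share. Its 36hpf interval, for counting error only, ran from 0.51 to 1.58 and so held values below 1. The difference between stages was not tested, and each stage rests on 1 sample per genotype.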

How the results depend on the processing

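No result changed direction under any alternative run. At 36hpf the count of members at -2 or less, 3 in the values reported, was 1 with library totals as the scaling and 1 with 2 reads added, and the count at 2 or more, 1 as reported, was 0 with a minimum of 100 reads. At 72hpf, adding 0.1 FPKM in place of 1 gave 15 members at -2 or less in place of 5, 1 at 1 or more in place of 0, and a median of -1.49. A minimum of 5 FPKM in either library left 42 members with a median of -1.43. Low FPKM weigh more with the smaller addition, by its construction. Among members picked by rule at 72hpf, not all of them with printed values, 4 moved and 22 did not with 0.1 FPKM added. With centring on the median of all genes 1 moved and 25 did not. Each moved in the same direction. Further members with printed values, such as *GABRA4* and *grin2ca*, were not checked singly. No paired analysis was possible because each genotype has 1 sample per stage, and no replicate could be left out. Depth per library at 72hpf is unknown, and 20 members at 36hpf had under 100 reads.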
